A study of Homo sapiens with 6 samples.

Results

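ELAVL1 encodes HuR, an RNA-binding protein of the ELAV family that is present in nearly all cell types. The positions of HuR on its own pre-mRNA and mRNA were examined with all PAR-CLIP sites on the minus strand within chr19:8023457-8070543 (hg19), the span of the gene. The rule found 807 sites among 10639684 in the 6 libraries, of which 110 lay in G20, 24 in G35, 39 in G45, 169 in HuR replicate 1, 215 in HuR replicate 2 and 250 in Total. A site is a stretch of the genome covered by 1 or more overlapping reads, and its value is the number of reads in it.

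HuR binds uridine- and AU-rich stretches, mainly in introns and 3'UTRs, through RNA recognition motifs. Binding in the 3'UTR is known for stabilizing mRNAs and for changing their translation, and ELAV proteins are known to bind their own transcripts. In PAR-CLIP, 4-thiouridine (4SU) is fed to cells and crosslinked to bound protein by UV light, and a crosslinked base is read as C in place of T.

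The cells were HEK293, a human embryonic kidney line, that stably carried a doxycycline-inducible HuR or GFP gene with a FLAG tag, and they were given 4SU and doxycycline overnight. HuR was purified from the first line in 2 replicates. GFP, which is not an RNA-binding protein, was purified from the second line, and the G20, G35 and G45 libraries are 3 gel slices of that control, named for their approximate size in kDa. These slices are called background here and are not separate cultures. Total is 1 library of RNA from 4SU-fed, crosslinked and RNase T1-digested lysate after rRNA depletion, without purification of a protein, and which of the lines it came from is not given in the sources used here. Nothing says whether the HuR replicates came from separate cultures, so p-values measure the spread between these libraries, which may be technical. The inducible gene can add coding reads of HuR, which cannot be told apart from those of the endogenous gene.

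The libraries held between 6187300 (G35) and 38644636 (G20) reads in sites. Reads in sites of protein-coding genes made up 25.5% in Total to 62.3% in HuR replicate 2. In Total, the HEK293 markers VIM and NEFL had 2268 and 362 exonic reads, KRT18, KRT8, PAX2 and NEFM had 35, 33, 17 and 4, and among markers of other cell types CD3E and INS had 0, MYH7 1, PTPRC 3 and ALB 41. G20 stood apart in scale, with a TMM factor of 0.186 against 0.863 to 2.15 in the other libraries. TMM is a scaling factor that aligns most genes between libraries, so levels of the 3'UTR, coding sequence and introns of ELAVL1 are given with and without it. Differences fitted with edgeR use TMM unless stated otherwise.

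The canonical transcript of ELAVL1 has 6 exons on the minus strand. Exon 1 (chr19:8070379-8070525) is noncoding, coding sequence of 981 nt including the stop codon starts in exon 2 (chr19:8056528-8056715) and ends in exon 6 (chr19:8023457-8028691), and the 3'UTR of 4910 nt fills the rest of exon 6. Introns add up to 41015 nt. The 3'UTR is 31.2% T, the coding sequence 20.5% and the introns 24.5%.

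The stretches below show what HuR replicate 2 held most reads on in the 3'UTR, beside an intronic, a coding and 2 other intronic stretches that the results turn on. Each is the 30 bases with most T of a site (or the whole site where it is shorter), 5′ to 3′ on the RNA strand in hg19, with runs of 4 or more T in capitals. All 807 site sequences matched the minus strand of GRCh37.
3'UTR, chr19:8024161-8024190: ttgatttgTTTTatataaaataatttattt
3'UTR, chr19:8027208-8027237: TTTTcTTTTgcTTTTTTgtgTTTTTTgttt
3'UTR, chr19:8024113-8024142: TTTTaactttgTTTTTacatgggtttgttt
3'UTR, chr19:8027303-8027332: tattaaccaaaacctttgatttgtagTTTT
3'UTR, chr19:8026726-8026755: tgtttatttatacctatttatgtatttatt
3'UTR, chr19:8028204-8028233: TTTTTatactctgggatgcaaccgacatgt
Intron 4, chr19:8032795-8032824: tttgTTTTcacTTTTaggtttaaTTTTTgt
Coding part of exon 6, chr19:8028544-8028573: atcctctggcagatgtttgggccgtttggt
Intron 2, chr19:8053818-8053832: taatagcgtctccag
Intron 4, chr19:8034481-8034499: tgtcattcgtgtcgtgaga

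HuR reads on ELAVL1 lay mostly in the 3'UTR, whereas background and Total reads lay mostly in the coding sequence. The 3'UTR held 208 of 403 ELAVL1 reads in HuR replicate 1 (51.6%, 95% Wilson interval 46.7 to 56.5%) and 1991 of 3195 in HuR replicate 2 (62.3%, 60.6 to 64.0%). It held 35 of 443 reads in G20 (7.90%, 5.74 to 10.8%), 13 of 131 in G35 (9.92%, 5.89 to 16.2%) and 23 of 225 in G45 (10.2%, 6.91 to 14.9%). In Total it held 324 of 1670 (19.4%, 17.6 to 21.4%). Both HuR libraries were thus above Total and above every slice, at 57.0% ± 7.57 (SD, n = 2) against 9.35% ± 1.26 (SD, n = 3). The two-sided exact permutation test over the 5 libraries gave p = 0.2, the smallest this design allows. Intervals cover counting error only, since reads without molecular identifiers are not independent molecules.

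**Figure D1:**
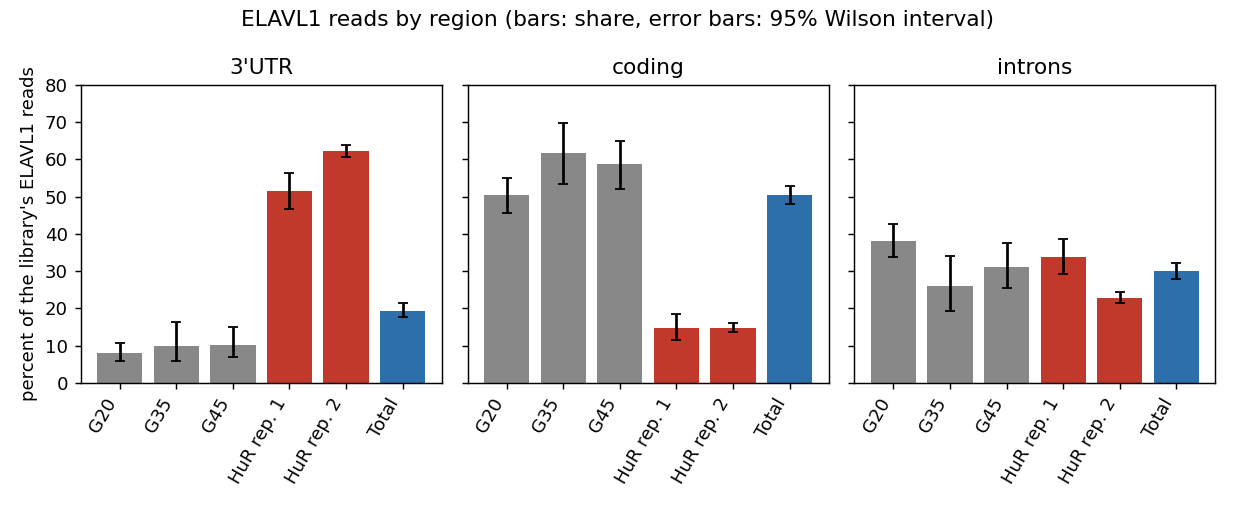
Share of each library's ELAVL1 reads (percent, y axis) in the 3'UTR, the coding sequence and the introns; bars are single libraries and error bars 95% Wilson intervals. The 3'UTR share was 51.6% and 62.3% in HuR and at most 10.2% in the slices, and the coding share was 14.6% and 14.8% in HuR and at least 50.3% in the slices.

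The coding sequence showed the opposite order. It held 14.6% and 14.8% of ELAVL1 reads in the HuR replicates, 50.3%, 61.8% and 58.7% in G20, G35 and G45, and 50.4% in Total. The intronic share did not separate the groups. It was 33.7% and 22.8% in HuR replicates 1 and 2, 38.1%, 26.0% and 31.1% in G20, G35 and G45 and 29.9% in Total, and the two-sided exact permutation test of HuR against background gave p = 0.6. The 5'UTR held few reads, with 16 in G20, 3 in G35, 0 in G45, 0 and 4 in the HuR replicates and 4 in Total. A count of 0 allows up to 3 reads, which is 0.398 per 1000000 reads in sites in G45 and 0.315 in HuR replicate 1.

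Per length, the 3'UTR was read far less densely than the coding sequence in background and almost as densely in HuR. The density ratio of 3'UTR to coding reads was 0.0314, 0.0321 and 0.0348 in G20, G35 and G45, 0.0769 in Total, and 0.704 and 0.841 in HuR replicates 1 and 2. As read counts, the ratio was 0.157, 0.16 and 0.174 in the slices, 0.385 in Total, and 3.53 and 4.21 in HuR. On the log2 scale with a pseudocount of 0.5, HuR was 4.52 ± 1.17 (SE) above background, with an adjusted p of 0.0619 from limma over 10295 genes. At that threshold limma called 0 of 10295 genes (0%), while the unadjusted p was under 0.05 and the ratio higher in HuR for 3316 genes, with 0.0023 for ELAVL1 from limma. The median difference over all 10295 genes was 2.64, and 82.6% of them lay below ELAVL1. With a pseudocount of 5 the difference was 4.25 and the adjusted p from limma 0.0144, and limma then called 2545 of 10295 genes higher in HuR (24.7%), with a median difference of 1.66.

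Scaled to reads per 1000000 reads in sites (RPM), the level of 3'UTR reads was 0.906, 2.10 and 3.05 in G20, G35 and G45, 21.8 and 62.0 in HuR replicates 1 and 2, and 9.02 in Total. With TMM scaling the same levels were 9.58, 6.24 and 10.7, then 38.3 and 51.9, then 16.5 RPM. HuR did not overlap with background or Total on either scale, and Total lay between them on both. In the fit over all gene regions the 3'UTR was 2.35 ± 0.74 (SE) higher on the log2 scale in HuR than in background, with an adjusted p of 0.0486 from edgeR's quasi-likelihood test. With the deposited totals in place of TMM it was 4.39 higher. Among the 9505 3'UTRs tested, 1.57% were called higher in HuR, the median difference was 0.72 and 80.3% lay below ELAVL1. The call was lost when HuR replicate 2 was left out (2.05, adjusted p = 0.426 by edgeR) and with each slice left out in turn (2.18 to 2.52, adjusted p from 0.0824 without G45 to 0.122 without G35, by edgeR).

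Against Total, the 3'UTR difference was 1.45 on the log2 scale (edgeR adjusted p = 0.472), where the median over all 3'UTRs was -0.88 and 93.2% of them lay below ELAVL1. Of all 3'UTRs, 0.295% were called higher in HuR than in Total. Background against Total gave -0.90 (edgeR adjusted p = 0.850), and 0.316% of 3'UTRs were called lower in background. With the deposited totals, HuR differed from Total by 2.22 and background from Total by -2.18. By reads, the ELAVL1 3'UTR ranked 158th and 192nd from the top of 19403 3'UTRs in HuR replicates 1 and 2, 1061st, 1120th and 547th in G20, G35 and G45, and 1060th in Total.

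Coding reads of ELAVL1 depended on the scale. In RPM of all reads in sites they were 5.77, 13.1 and 17.5 in G20, G35 and G45, 6.19 and 14.7 in HuR and 23.4 in Total, so that HuR lay within the range of the slices. With TMM they were 61.0, 38.9 and 61.6 in the slices, 10.9 and 12.3 in HuR and 43.0 in Total, so that HuR lay below all of them. The fitted difference of HuR from background was -2.21 ± 0.76 (SE) on the log2 scale (edgeR adjusted p = 0.0670), and with the deposited totals in place of TMM it was -0.21. Of all coding sequences 11.8% were called lower in HuR and the median was -2.71, so ELAVL1 was less far down than 60.6% of them. DESeq2 called the ELAVL1 coding sequence lower (-2.36, adjusted p = 0.00705). Against Total the HuR difference was -1.89 with TMM and -1.16 with the deposited totals (edgeR adjusted p = 0.253 with TMM), where 9.56% of coding sequences were called lower. Background against Total was 0.33 with TMM and -0.95 with the deposited totals (edgeR adjusted p = 0.971 with TMM), where 0.257% were called higher. By reads, the ELAVL1 coding sequence ranked 238th and 21st of 19894 coding sequences in HuR replicates 1 and 2, 314th, 111th and 62nd in G20, G35 and G45, and 365th in Total.

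Intronic reads were 4.37, 5.50 and 9.28 RPM in G20, G35 and G45, 14.3 and 22.6 in HuR and 13.9 in Total. With TMM they were 46.3, 16.3 and 32.6 in the slices, 25.0 and 18.9 in HuR and 25.5 in Total, so that HuR then overlapped the slices. The fitted difference was -0.54 (edgeR adjusted p = 0.658) with TMM and 1.54 with the deposited totals. Of all introns 5.29% were called higher in HuR and 1.5% lower, with a median of 0.74, and 24.8% of them lay below the introns of ELAVL1. Against Total the introns differed by -0.22 in HuR with TMM and by 0.41 with the deposited totals (edgeR adjusted p = 0.922 with TMM, where 0.114% of introns were called lower). Background against Total gave 0.32 with TMM and -1.13 with the deposited totals (edgeR adjusted p = 0.973 with TMM, where 1.29% were called higher).

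**Figure D2:**
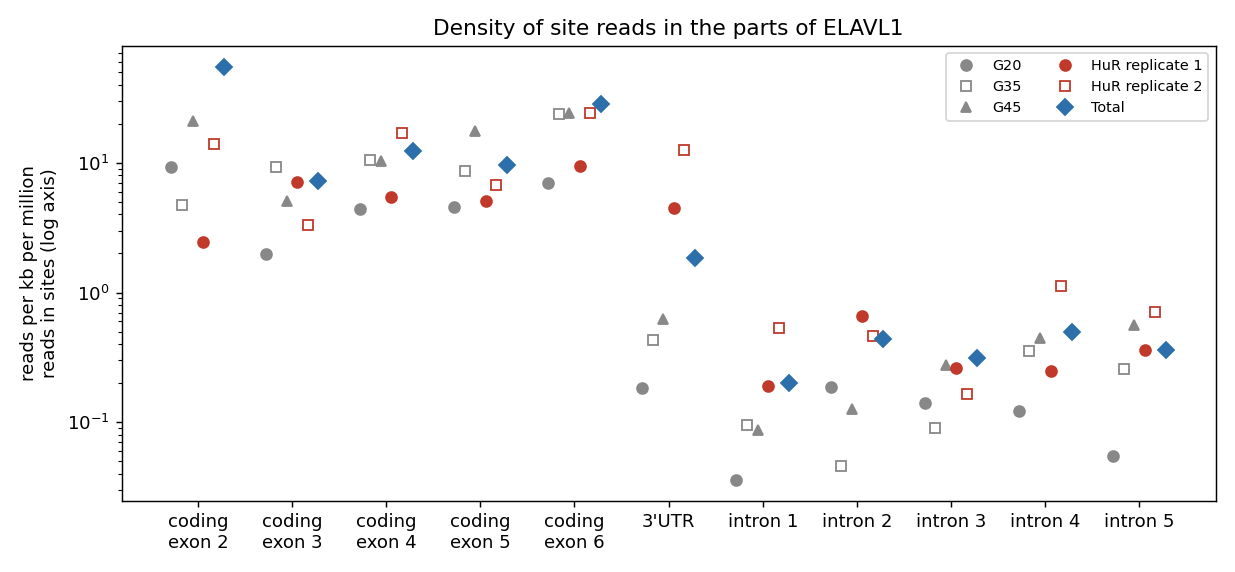
Reads per kb and per 1000000 reads in sites (log axis) in the coding part of exons 2 to 6, the 3'UTR and introns 1 to 5 of ELAVL1; points are single libraries, and a part without reads has no point. In the 3'UTR both HuR points lie above Total and the slices, while in the coding exons the libraries interleave. Within each library every intron lies below every coding exon, and in the slices the densest intron is about as dense as the 3'UTR.

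Within the coding sequence, exon 6 held more reads than any other exon in both HuR replicates and in every slice, while exon 2 led in Total. Exon 2, which carries the start codon, held 340 of the 842 coding reads in Total, 62 in G20, 27 in G45, 5 in G35 and 4 and 77 in HuR replicates 1 and 2. The coding part of exon 6 held 329 reads in Total, 87, 48 and 59 in G20, G35 and G45, and 29 and 252 in HuR. Exon 4 held 84 reads in HuR replicate 2, 8 in replicate 1 and 68 in Total. Nearly all coding sites met background: all 14 coding sites of HuR replicate 2 overlapped a background site, as did 16 of 17 in replicate 1 and all 16 in Total. Over all coding sites of HuR replicates 1 and 2 these shares were 35.9% and 44.3%, and none was computed for Total.

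The 3 coding windows of 100 nt with most HuR RPM (mean of the replicates) were coding positions 301 to 400, 701 to 800 and 901 to 981. Positions 301 to 400 held 1 and 84 reads in HuR replicates 1 and 2, and positions 901 to 981 held 5 and 101, so both rested mainly on replicate 2. Total held 38 and 99 reads there. Pearson's r of log2 reads over the 10 coding windows was -0.13 between the HuR replicates. Positions 701 to 800 held 14 and 111 reads in HuR, 21, 11 and 26 in G20, G35 and G45 and 202 in Total. The leading HuR replicate 2 site there (chr19:8028540-8028629, 111 reads) had 119 conversion events at 12 locations, the G35 site (chr19:8028595-8028629, 11 reads) had 15 events and the Total site (chr19:8028594-8028613, 199 reads) had 33. This window was also among the 3 with most background RPM (mean of the slices), with coding positions 1 to 100 and 801 to 900. Positions 801 to 900 held 11, 24 and 18 reads in the slices, 2 and 13 in HuR and 5 in Total. The largest site of Total lay in positions 1 to 100 (chr19:8056601-8056633, 312 reads) and had 5 events.

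The HuR reads were spread over most of the 3'UTR. Of the 50 windows of 100 nt, 43 and 40 held reads in HuR replicates 1 and 2, 32 in Total, and 14, 3 and 10 in G20, G35 and G45. The 3 fullest windows of each library held 26.0% and 43.7% of the 3'UTR reads in HuR replicates 1 and 2 and 31.2% in Total. In G20, G35 and G45 they held 51.4%, 100% and 60.9% of only 35, 13 and 23 reads. Reads were thus least concentrated in HuR replicate 1. Pearson's r of log2 reads over the 50 windows was 0.56 between the HuR replicates, 0.44 and 0.26 between them and Total, and 0.09 to 0.37 between them and the slices. These are descriptions over windows that share library depth and base composition.

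The 3 windows with most HuR reads were positions 1101 to 1200, 4101 to 4200 and 4201 to 4300 from the stop codon. Positions 4101 to 4200 held 382 reads in HuR replicate 2 but 3 in replicate 1, with 0, 0 and 1 in G20, G35 and G45 and 11 in Total. Its leading site (chr19:8024153-8024193, 366 reads, 410 conversion events at 16 locations) had no overlapping read in replicate 1, although the Total site inside it (chr19:8024156-8024182) had 10 reads with 8 events. Positions 4201 to 4300 were read in every library.

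Positions 4201 to 4300 held 19 and 225 reads in HuR, 5, 7 and 3 in G20, G35 and G45 and 8 in Total. The HuR sites (chr19:8024104-8024152 with 18 reads and chr19:8024093-8024152 with 225) had 18 and 248 events. All 3 slices and Total shared 1 shorter site there, chr19:8024132-8024152, with 4, 7, 0 and 2 events in G20, G35, G45 and Total. Positions 1101 to 1200 held 9 and 263 reads in HuR, 2, 0 and 0 in the slices and 7 in Total, and the replicate 2 site there (chr19:8027079-8027265, 263 reads) ran over 187 nt with 295 events at 48 locations.

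**Figure D3:**
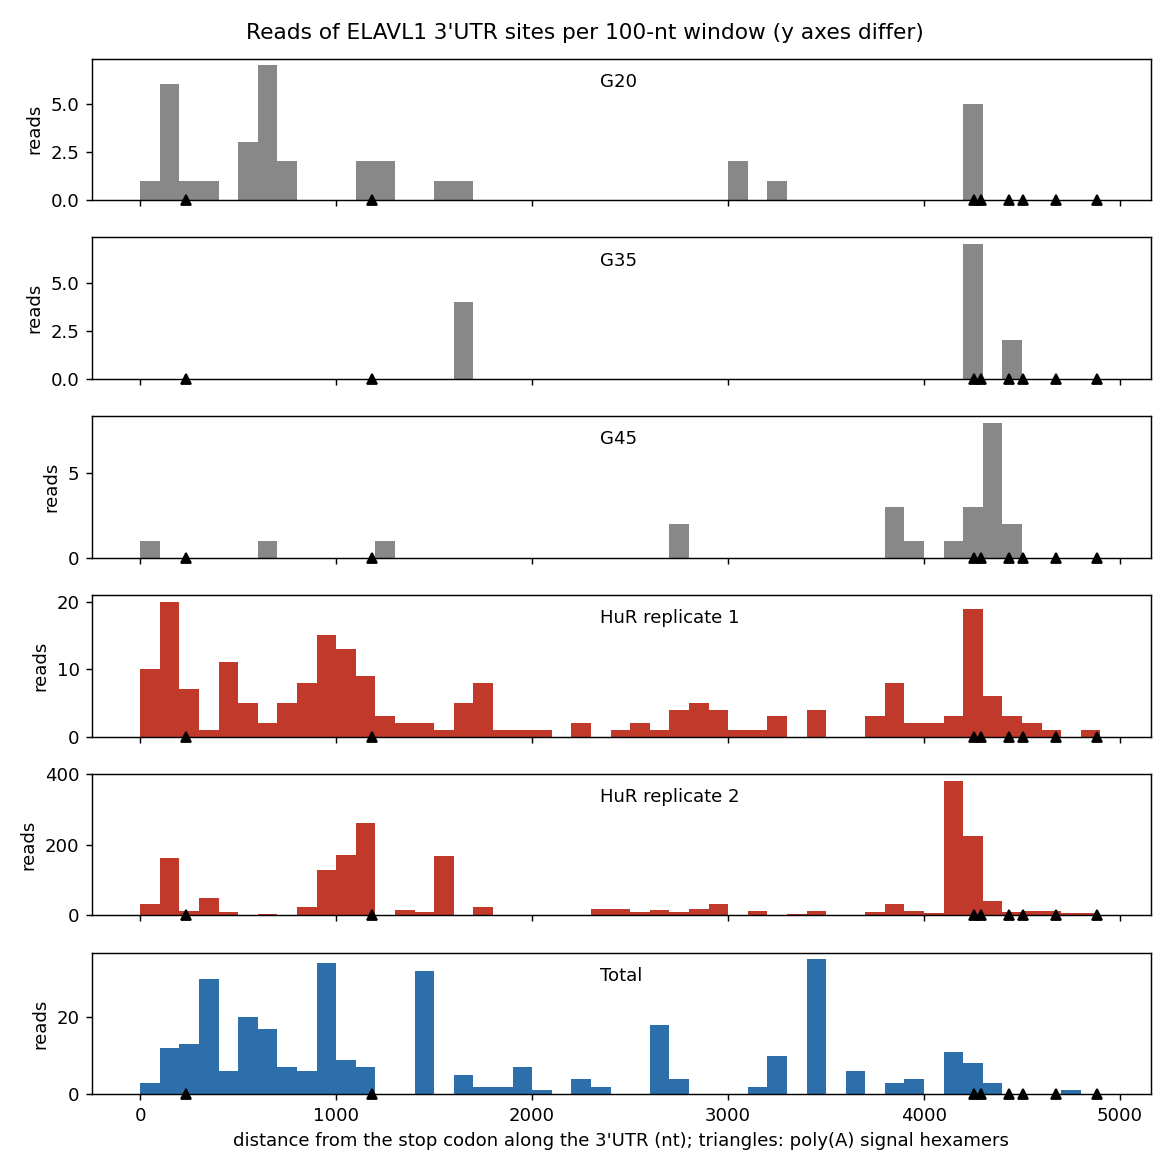
Reads of 3'UTR sites per 100-nt window (y axis, a separate scale per library) against distance from the stop codon in nt (x axis); triangles mark AATAAA and ATTAAA. HuR replicate 2 is highest at positions 4101 to 4200 (382 reads), 1101 to 1200 (263) and 4201 to 4300 (225), HuR replicate 1 at positions 101 to 200 and 4201 to 4300 with 20 and 19, and no slice exceeds 8 reads in a window.

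Other stretches of the 3'UTR also led in HuR. The stretch around chr19:8028204-8028233, near the stop codon, held 20 and 156 reads in HuR, 6, 0 and 0 in G20, G35 and G45 and 11 in Total. The stretch at chr19:8027303-8027332 held 11 and 172 reads in HuR, 0 in every slice and 9 in Total. The stretch at chr19:8026726-8026755, which holds ATTTA, held 5 and 168 reads in HuR, 0, 4 and 0 in the slices and 5 in Total. All were higher in replicate 2 than in replicate 1, whose library is smaller (9525265 against 32111810 reads).

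The letters of the 3'UTR sites were compared with all stretches of the same length in this 3'UTR, on the RNA strand alone. TTTTT was in 19.4% of the 72 sites of HuR replicate 1 and 24.2% of the 62 of replicate 2, against 10.7% and 13.1% of stretches of the same length. Those sites carried 33.7% and 72.1% of the 3'UTR reads. In Total, 17.8% of 45 sites held it against 10.9% of stretches, with 13.6% of reads. It was also in 6 of 16, 2 of 3 and 7 of 10 background sites in G20, G35 and G45, against 12.2%, 8.78% and 9.87% of stretches. Those background sites carried 45.7%, 69.2% and 82.6% of the 35, 13 and 23 background reads. By share of sites, TTTTT thus did not set HuR apart from background.

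ATTTA was in 9.72% and 9.68% of the HuR sites against 4.98% and 6.54% of stretches, with 8.65% and 41.5% of reads. In Total it was in 11.1% of 45 sites against 5.21% of stretches, with 7.10% of reads, and in G20, G35 and G45 it was in 0 of 16, 1 of 3 and 2 of 10 sites. HuR sites thus held ATTTA no more often than Total sites. The poly(A) signal hexamers AATAAA and ATTAAA, which direct cleavage of the pre-mRNA, stood at positions 4257, 4290, 4436, 4507 and 4886 and at positions 233, 1184 and 4674. The first AATAAA lay within the site of HuR replicate 2 at chr19:8024093-8024152 and that of replicate 1 at chr19:8024104-8024152. Past it, the last 648 nt (13.2% of the 3'UTR) held 6.73% and 4.57% of the 3'UTR reads in HuR replicates 1 and 2 (14 and 91 reads), 1.23% in Total (4 reads) and 0, 2 and 10 reads in G20, G35 and G45.

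Intronic reads of HuR were many sites with few reads each. HuR replicate 2 had 727 reads in 137 intronic sites, replicate 1 136 in 80 and Total 500 in 185, against 169 in 79, 34 in 9 and 70 in 16 in G20, G35 and G45. Introns 1, 2 and 4 held 233, 156 and 215 reads in HuR replicate 2 and 98, 166 and 106 in Total. Intron 2 thus led in Total, and it also led in replicate 1 with 66 and in G20 with 75. Intron 4 led in G35 and G45 with 13 and 20. Per kb, intron 4 was the densest in replicate 2 (36.2 reads) and intron 2 in replicate 1 (6.31 reads). Of the 66 reads of intron 2 in replicate 1, 32 were 1 site without a conversion. Without it intron 2 had 3.25 reads per kb, below intron 5 with 3.46. The 3 intronic windows of 1000 nt with most HuR reads lay in introns 1, 2 and 4.

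The window at the 3' end of intron 4 (positions 5001 to 5934) held 9 and 107 reads in HuR, 2, 0 and 5 in G20, G35 and G45 and 21 in Total. Its leading site in replicate 2 (chr19:8032779-8032842, 67 reads) had 104 events at 15 locations, and the T-rich stretch printed for it held 4 reads in replicate 1, 2 in Total and 0 in every slice. The last 500 nt of the introns together held 8.09% and 16.0% of the intronic reads in HuR replicates 1 and 2, 7.80% in Total and 0 of 169, 34 and 70 reads in the slices, where these stretches make up 6.10% of the intron length. Of the 116 such reads in replicate 2, 67 were the single site named above, so its share rests largely on that site. The first 500 nt of the introns held 5.88% and 6.60% in HuR, 8.40% in Total and 13.6%, 14.7% and 1.43% in G20, G35 and G45.

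The window in intron 2 rested on 1 site of 1 replicate. The site chr19:8053818-8053832 held 32 reads with no conversion in HuR replicate 1, the most of any ELAVL1 site in that library, and no read in the other 5 libraries. The window in intron 1 (positions 1001 to 2000) held 6 and 51 reads in HuR, 3, 0 and 0 in the slices and 22 in Total. In turn, sites overlapping chr19:8034481-8034499 in intron 4 were read in every slice, with 10, 5 and 15 reads and 13, 5 and 10 events in G20, G35 and G45, and with 1 and 2 reads in HuR. A smaller site in intron 1 (chr19:8064276-8064295) was also read in every slice, with 3, 2 and 3 reads, and with 0 and 1 read in HuR.

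In the 3'UTR and coding sequence, both HuR replicates had more T-to-C events per 100 reads than any slice or Total, by their point values. Over whole libraries the paper also reports a larger share of converted reads in HuR than in the slices. This order is therefore not particular to ELAVL1. In the 3'UTR, HuR replicates 1 and 2 had 94.7 (exact 95% Poisson interval 81.9 to 109) and 106 (102 to 111) events per 100 reads, where a read may carry up to 2. The slices had 34.3 (17.7 to 59.9) in G20, 84.6 (42.2 to 151) in G35 and 26.1 (9.57 to 56.8) in G45, and Total had 21.0 (16.3 to 26.6). The interval of G35, with 13 reads, covers both HuR values, and those of G20, G45 and Total lie below them.

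In the coding sequence HuR had 74.6 (54.2 to 100) and 98.3 (89.6 to 108) events per 100 reads, against 17.0, 40.7 and 18.2 in G20, G35 and G45 and 11.3 in Total. The intervals of G20, G45 and Total end below the HuR intervals, and that of G35 (28.0 to 57.2) overlaps the interval of replicate 1. In the introns HuR and the slices overlapped, with 58.8 and 102 in HuR and 29.0, 103 and 88.6 in the slices. Total lay below them all, at 16.6 (13.2 to 20.6). The 32 unconverted reads in intron 2 are part of the 136 behind the value of replicate 1.

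**Figure D4:**
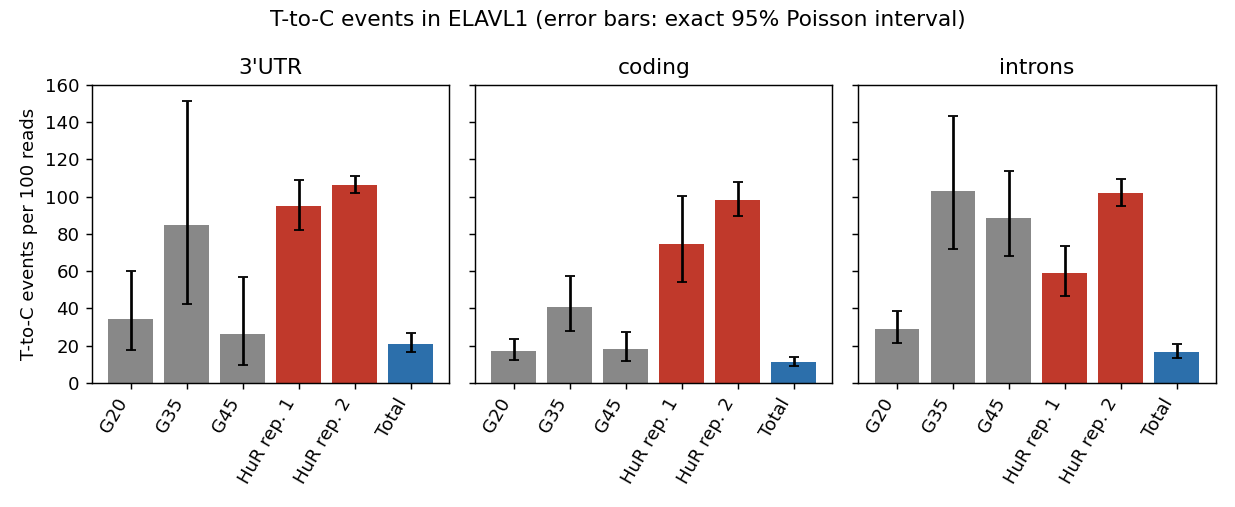
T-to-C events per 100 reads (y axis) in the 3'UTR, coding sequence and introns of ELAVL1; bars are single libraries and error bars exact 95% Poisson intervals on the events. HuR lies at 94.7 and 106 in the 3'UTR and at 74.6 and 98.3 in the coding sequence, Total at 21.0 and 11.3, and in the introns G35 and G45 reach 103 and 88.6.

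Sites of the HuR replicates were compared by an overlap of at least 1 bp. A site of the other replicate met 51 of 72 3'UTR sites of HuR replicate 1 and 41 of 62 of replicate 2, and 24 of 137 intronic sites of replicate 2. Over the whole gene, 54.4% of replicate 1 sites and 35.8% of replicate 2 sites were shared. The share of sites met by the other replicate was not computed over the genome, so these values cannot be called particular to ELAVL1. Background overlapped 27.2% of the sites and 39.2% of the reads of replicate 1, and 25.1% of the sites and 59.6% of the reads of replicate 2. Over all sites of the genome these shares were 8.94% of sites and 63.2% of reads in replicate 1, and 7.61% and 27.4% in replicate 2.

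Background sites also met HuR sites beyond the coding sequence, which bears on the study's question of which sites a background correction removes. In the 3'UTR, 28 of 62 sites of replicate 2 (542 of 1991 reads) were shared with replicate 1 and free of background, and 13 sites (948 reads) were shared with replicate 1 and also overlapped background. A further 2 sites with 367 reads overlapped background and not replicate 1, of which 366 reads were the site at chr19:8024153-8024193, met by 1 read of G45. The shared and background-free sites made up 45.2% of the ELAVL1 3'UTR sites and 27.2% of their reads, against 27.2% and 28.6% over all 3'UTR sites of replicate 2. In the coding sequence no site of replicate 2 was free of background, where 44.3% of all coding sites of that library overlapped it. In the introns 19 of 137 sites (184 of 727 reads) were shared and free of it, which is 13.9% of sites and 25.3% of reads against 21.5% and 30.5% over all intronic sites.

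Other genes of HuR's own network were compared by their 3'UTRs. The list holds the other ELAV proteins, binders of AU-rich elements, partners and carriers of HuR in transport across the nuclear envelope, and enzymes that modify or degrade it. Of its 30 genes 27 were tested: 3 were called higher in HuR than in background and 0 lower by edgeR, as by DESeq2, 9 (33.3%) and 0 had an unadjusted edgeR p under 0.05, and 20 had a positive difference, with a median of 0.70 against 0.72 over all 3'UTRs. The 3 calls are 11.1% of the list, where 1.57% of all 3'UTRs were called higher and 11.3% were higher with an unadjusted edgeR p under 0.05. The calls were HNRNPD (3.20, edgeR adjusted p = 0.0287) and PCBP1 (3.47, edgeR adjusted p = 0.0159), both binders of mRNA, and TNPO1, an import receptor (2.39, edgeR adjusted p = 0.0444). HNRNPD had 13, 3 and 2 reads in G20, G35 and G45 and 116 and 639 in HuR.

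The 4 genes of the list with most 3'UTR reads in Total were KHSRP, HNRNPA1, TNPO1 and CELF1. TNPO1 had 32, 11 and 19 reads in G20, G35 and G45, 194 and 1718 in HuR and 802 in Total. KHSRP, a decay-promoting binder of AU-rich elements, differed by 0.24 (edgeR adjusted p = 0.856), HNRNPA1, a splicing regulator, by 1.13 (0.300), and CELF1, a GU-rich element binder, by 1.56 (0.157). Of the ELAV family, ELAVL2 had 17, 33 and 12 reads in the slices and 31 and 399 in HuR (-0.10, edgeR adjusted p = 0.961), ELAVL3 gave -1.27 (0.690) and ELAVL4, with 5 reads in all, was not tested.

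The 5 genes whose reads were most like those of ELAVL1 over 18 values (3'UTR, coding and intronic RPM in the 6 libraries, as log2 of the value + 1) were DDX5 (Pearson's r = 0.85), SFPQ (0.84), HNRNPDL (0.84), QSER1 (0.84) and MDC1 (0.83). The median r over 9592 genes was 0.39. In SFPQ, a splicing factor, the 3'UTR held 366 and 5235 reads in HuR, 37, 17 and 44 in the slices and 289 in Total.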

How the data were processed

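The authors sequenced single reads of the libraries, removed adapters, mapped the reads to hg19 with bowtie and ran PARalyzer on reads that had a unique place in the genome and 0 to 2 T-to-C changes. What they deposited are raw counts of reads, conversion locations and conversion events at each site. Versions and removal of PCR duplicates are not given in the sources used here. Bowtie aligns without splicing, so reads across exon junctions are missing in every library.

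Each site was given to the part of the gene at its midpoint, with the canonical transcript of GENCODE release 44 mapped to GRCh37. Reads were summed per gene and part for all protein-coding genes, dropping sites where the same part of different genes overlaps on a strand. Where different parts overlap, coding sequence was taken before 3'UTR, 3'UTR before 5'UTR and 5'UTR before intron. The 6 libraries were fitted as 3 groups with edgeR 4.0.16 (TMM, filterByExpr with a minimum count of 10, quasi-likelihood test) and Benjamini-Hochberg adjustment over 36996 gene parts, with a threshold of 0.05. The ratio of 3'UTR to coding reads was fitted with limma 3.58.1. DESeq2 1.42.0 was an alternative. Shares of reads were compared with exact permutation tests. A floor is 3 reads. The fits were tested on simulated data, where large changes were recovered at a low spread and not called at the spread of these libraries.

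Windows, genes and lists were chosen with earlier results of these data known. Named windows were the 3 with most HuR RPM (mean of the replicates) in each gene part and the 3 with most background RPM (mean of the slices), with their fullest sites. The 6 printed 3'UTR stretches come from the fullest sites of HuR replicate 2. Python 3.11.15, R 4.3.3, pandas 2.3.3 and scipy 1.17.1 were used.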

Additional observations from a re-analysis of the deposited data

How the results depend on the processing

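The 3'UTR stayed higher in HuR than in background under all 12 alternatives run, but the call held in only 4 of them (DESeq2, deposited totals in place of TMM, no filter on low counts, and without HuR replicate 1). Its log2 difference was 2.31 with sites of 2 or more reads, 3.59 with clusters, 2.22 with any transcript and 1.999 with HuR and background libraries only, each no longer called, and 2.05 to 3.18 with a library left out. The coding sequence became called lower with DESeq2 (-2.36) and with HuR and background only (-2.58). The ratio of 3'UTR to coding reads became called with a pseudocount of 5 (4.25).

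Introns turned direction with the deposited totals and with no filter, at 1.54 and 0.32 for HuR against background and -1.13 and -0.32 for background against Total. The latter ranged from -0.025 to 0.63 with a library left out. For HuR against Total, introns gave 0.41 with deposited totals, 0.033 with clusters and -0.24 to 0.40 with a library left out. Coding reads of background against Total turned to -0.95, -0.28 and -0.38 with deposited totals, no filter and clusters. Deposited totals moved the median of all gene parts, HuR against background, from -0.42 to 1.63. Relative to that median the 3'UTR was 2.76 higher with TMM and 2.77 with deposited totals, and the introns -0.12 and -0.09. Subtracting the median removes a shift in scale, so this likeness is no separate check. Over all settings the 3'UTR ran from 1.74 (HuR and background only) to 3.46 (without HuR replicate 1) relative to the median. The introns ran from -1.70 (clusters) to 0.26 (no filter). The difference in intronic share ran from -8.98 to 2.01 percentage points with a library left out.

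With clusters, conversion events per 100 reads moved to 86.4 in the background 3'UTR and 24.2 in the introns of Total. The paper defines clusters by a minimum number of conversion locations, so unconverted sites are left out of these values by definition. The background value is a mean over those slices that have a cluster there. With sites of 2 or more reads, 72.3% of HuR replicate 1 sites met replicate 2, 22.0% of replicate 2 sites met replicate 1 and 17.8% met background. Calls over all gene parts for HuR against background, 940 higher and 1727 lower, ranged from 2 to 6247 and from 2 to 4821. For HuR against Total, 216 and 1143 ranged from 0 to 671 and from 0 to 2033, and for background against Total, 236 and 56 ranged from 16 to 1224 and from 2 to 354. The causes of these changes were not tested. The 13 to 35 background reads in the 3'UTR limit what can be said of single background sites. No paired analysis was possible because the numbers of the slices only name them and do not link a slice to a HuR replicate.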

Other observations

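Reads on the opposite (plus) strand of the ELAVL1 span differed between libraries. G20, G35 and G45 had 33, 163 and 187 such reads in 11, 12 and 16 sites, which is 6.93%, 55.4% and 45.4% of their reads on both strands. HuR replicates 1 and 2 had 27 and 124 (6.28% and 3.73%) and Total had 9 (0.536%). Sites at chr19:8062729-8062745, opposite intron 1, held 18, 114 and 47 of them in G20, G35 and HuR replicate 2, and a site that starts 1 base earlier held 64 in G45. These reads are part of the library totals behind the RPM values and the fits with deposited totals, but enter none of the ELAVL1 read counts above.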
